A study of Mus musculus with 12 samples.

Results

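The effect of an antibody against IL-17A on lung transcripts after O3 was examined in obese db/db mice, with 3 arrays of anti-IL-17A-treated animals set against 4 arrays of animals that received an isotype control antibody. These are 7 of the 12 arrays of the series, chosen by their labels alone, and they were described across 21532 genes. The other 5 arrays served as background. Of these, 4 came from db/db mice that breathed air and received the isotype antibody, and 1 from a wild-type (WT) mouse with the same antibody and O3.

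All mice were female, on a C57BL/6 background, bought at 6 weeks of age and studied at 10 weeks. In db/db mice the signalling form of the leptin receptor is missing throughout the body, which makes them obese, and this mutation was shared by the anti-IL-17A arrays, the isotype O3 arrays and the air arrays. Exposure to 2 ppm O3 lasted 3 h, and lungs were collected 24 h afterwards. The labels name left lungs as the source of the total RNA, whereas the study's methods name the right lung for RNA. The clone, dose and timing of the antibody are not given in the sources used here, and the labels do not say whether arrays of a group come from separate animals, so p values measure only the spread between these arrays. The anti-IL-17A arrays carry the replicate numbers 1, 2 and 4.

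IL-17A is a cytokine made by Th17 cells, γδ T cells and other innate lymphocytes. It binds a receptor built of the chains IL-17RA and IL-17RC, which recruits the adaptor Act1 and the ubiquitin ligase TRAF6 and so leads to NF-κB, C/EBP transcription factors and IκBζ. In the airways it is best known for inducing neutrophil chemokines, growth factors and antimicrobial proteins in epithelial cells, often by prolonging the life of their mRNA and often together with TNF. O3 is an oxidant air pollutant that injures airway and alveolar epithelium, and an antibody acts on the IL-17A protein, so the level of Il17a mRNA is no measure of whether it worked.

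Signals are RMA values on the log2 scale, in which a difference of 1 is a factor of 2. Median signals were 4.75 to 4.80 in the anti-IL-17A arrays and 4.75 to 4.90 in the isotype O3 arrays. The arrays were of lung: Sftpc, the surfactant protein of alveolar type 2 cells, had a signal of 11.40, 11.73 and 11.62 in anti-IL-17A replicates 1, 2 and 4, against 11.48 to 11.77 in the isotype O3 arrays. Scgb1a1, the secretoglobin of club cells, had 10.94, 11.24 and 11.14, against 10.95 to 11.34. Transcripts of brown fat were high in a few arrays. Ucp1, the uncoupling protein of brown fat, was near 10 in anti-IL-17A replicate 1 (10.53), isotype O3 replicate 4 (10.20) and 1 air array (10.12).

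The 3 anti-IL-17A arrays differed from one another more than the isotype O3 arrays did. Across genes, the median SD was 0.239 over the anti-IL-17A arrays, 0.159 over the isotype O3 arrays and 0.131 over the air arrays, and the SD was over 1 in 787, 184 and 120 genes of these groups. Each pair of anti-IL-17A arrays had a correlation across genes between 0.934 and 0.979, and each pair of isotype O3 arrays one between 0.974 and 0.992. Genes are not independent and share their array, so these are descriptions. Replicate 1 had a mean correlation of 0.956 with the isotype O3 arrays, replicate 2 of 0.979 and replicate 4 of 0.989, the last being above the mean correlation of any isotype O3 array with the other 3 (0.977 to 0.987). Replicate 2 was the array of the 3 that correlated more with the air arrays (0.988) than with the isotype O3 arrays (0.979). Isotype O3 replicate 2 also correlated slightly more with the air arrays (0.984) than with the other isotype O3 arrays (0.983). With the single WT O3 array, anti-IL-17A replicate 2 had a correlation of 0.989 and isotype O3 replicate 2 one of 0.991, so neither was closer to air than to that array.

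The number of genes that set an array apart showed the same order. In replicate 1, 854 genes were higher and 1219 were lower by over 1 than the median of the other 6 arrays. In replicate 2 these numbers were 485 and 231, and in replicate 4 they were 7 and 15. Among the isotype O3 arrays they ran from 17 to 374 genes higher and from 20 to 72 lower, with the 374 in replicate 4. Measured against the isotype O3 arrays alone, replicate 1 lay above the highest of them by over 1 in 371 genes and below the lowest in 565, replicate 2 in 147 and 51, and replicate 4 in 0 and 2. Replicates 1 and 2 lay outside that range by over 1 on the same side in 3 genes and on opposite sides in 18.

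**Figure D1:**
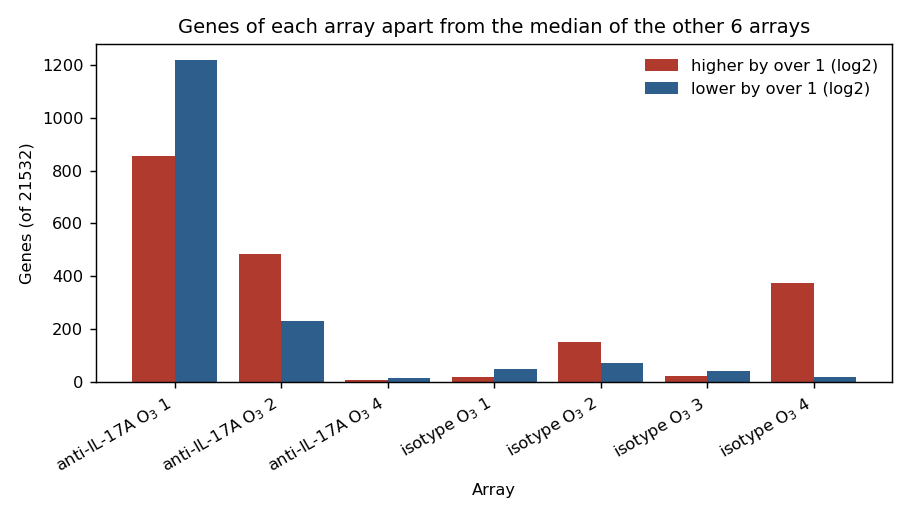
Genes, of 21532, that were higher (red) or lower (blue) by over 1 on the log2 scale than the median of the other 6 arrays, for each of the 3 anti-IL-17A O3 arrays (left) and the 4 isotype O3 arrays (right). Anti-IL-17A replicate 1 has 854 and 1219 such genes, replicate 2 has 485 and 231, and replicate 4 has 7 and 15.

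No gene passed an adjusted p of 0.05 between the anti-IL-17A and isotype O3 arrays (0 of 21532 genes, 0% called, limma with Benjamini-Hochberg adjustment). The smallest adjusted p was 0.83, and no gene passed at 0.1 either. At an unadjusted p under 0.05 by limma there were 634 genes with a higher mean in the anti-IL-17A arrays (2.94%) and 359 with a lower mean (1.67%), with a median difference of 0.036 over all genes. This split moved with the scaling: after quantile normalization 77.3% of such genes had the higher mean in the anti-IL-17A arrays, and after subtraction of array medians 86.5%, against 63.8% in the values as deposited. It was 52.0% without the dimmest 40% of probe sets, 52.1% without the 3 arrays high in Ucp1 (median difference 0.003) and 53.9% without isotype O3 replicate 4. All 3 anti-IL-17A arrays were above all 4 isotype O3 arrays in 570 genes (2.65%) and below all of them in 305 genes (1.42%). With a difference of 1 or more on top of this there were 0 genes above (0%) and 5 genes below (0.0232%). If the labels were random, 1 in 35 genes would on average lie fully apart in each direction, since 3 against 4 arrays allow 35 splits. Neither 2.65% nor 1.42% exceeds that share. The 95% interval of a gene's difference reached 0.32 to either side in the median gene, and 0.69 in a gene at the 90th percentile of the standard error.

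Leaving out an array did not give a call either. Without anti-IL-17A replicate 1 the smallest adjusted p was 1.0, without replicate 2 it was 0.33 and without replicate 4 it was 0.38, and 0 genes passed 0.05 in each case. It was 1.0 also without the 3 arrays high in Ucp1, where 637 genes had an unadjusted p under 0.05 and 18 did not overlap and differed by 1 or more. The number of genes at an unadjusted p under 0.05 was 614 without replicate 1, 3234 without replicate 2 and 2441 without replicate 4. The number of genes whose arrays did not overlap and differed by 1 or more was 11, 72 and 59 without these arrays, and 10 to 16 without 1 isotype O3 array.

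Of 11 genes for IL-17 family cytokines and their receptors, all were measured, 0 had arrays that did not overlap (2.65% of all genes above and 1.42% below, so a count of 0 or 1 in lists of this size is near the background), and 1, Il17a, had an unadjusted p under 0.05 by limma. Il17a itself had a signal of 4.11, 3.82 and 3.51 in anti-IL-17A replicates 1, 2 and 4, against 3.53, 3.35, 3.48 and 3.65 in isotype O3 replicates 1 to 4, and 3.30 to 3.52 in the air arrays. The arrays overlapped, with replicates 1 and 2 above the isotype O3 arrays and replicate 4 among them. The difference was 0.31 ± 0.14 (SE, adjusted p = 0.83 by limma, exact permutation p = 0.171 over 35 splits, two-sided), and 0.16 without replicate 1. All of these signals lay below the median signal of their array, and the deposited table has no call of detection.

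Of the receptor chains, Il17ra, which all family members but a few use, had 7.28, 7.23 and 6.88 in the anti-IL-17A arrays, against 7.14, 6.95, 6.84 and 6.78 in the isotype O3 arrays. Il17rc, its partner for IL-17A, had 5.03, 4.87 and 4.80, against 4.61, 4.82, 4.92 and 4.89. Il17rd, a further chain of the family, had the largest SD over the anti-IL-17A arrays among the 11 genes (0.92), with 5.61, 7.39 and 6.88, against 6.77 to 6.97 in isotype O3 replicates 2 to 4 and 6.70 in replicate 1. Replicate 1 was thus below and replicate 2 above all isotype O3 arrays, while replicate 4 was among them.

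Of the 20 signal mediators, 0 had arrays that did not overlap and 0 had an unadjusted p under 0.05 by limma. Their median difference was 0.56 in replicate 1, -0.16 in replicate 2 and 0.02 in replicate 4, each array being set against the isotype O3 mean. In replicate 1, 14 of the 20 were above every isotype O3 array, a position that 42.5% of all genes had in this array. In replicate 2, 12 of the 20 were below every isotype O3 array, as were 20.1% of all genes. Rela, an NF-κB subunit, had 8.36, 6.88 and 7.29 in replicates 1, 2 and 4, against 7.12 to 7.51 in the isotype O3 arrays. Cebpd, a C/EBP factor, had 8.59, 6.65 and 7.83, against 7.11 to 8.03. Nfkbia, the inhibitor that NF-κB itself induces, had 8.82, 7.35 and 8.22, against 7.56 to 8.38. In these 3 genes replicate 1 was above, replicate 2 below and replicate 4 within the isotype O3 arrays. Traf3ip2, which encodes Act1, had 7.29, 6.89 and 7.05, against 7.04 to 7.25.

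All 32 genes listed as targets of IL-17A were measured, 0 had arrays that did not overlap, and 1, Il6, had an unadjusted p under 0.05. Their median difference was 0.05, against 0.036 over all genes, and it was 0.0 without anti-IL-17A replicate 1, -0.02 without replicate 2 and 0.11 without isotype O3 replicate 1. Il6, a cytokine of the acute phase that IL-17A and O3 both induce, had 6.61, 5.25 and 6.91 in anti-IL-17A replicates 1, 2 and 4, against 7.31, 6.86, 7.86 and 6.66 in isotype O3 replicates 1 to 4. Replicates 1 and 2 were below every isotype O3 array, replicate 4 was above 2 of them, and all 7 were above the air arrays at 3.43 to 4.15. The difference was -0.92 ± 0.39 (SE, 95% interval -1.79 to -0.05, adjusted p = 0.83 by limma, exact permutation p = 0.171). It was -0.42 without replicate 2, -1.09 without replicate 1 and -1.25 without replicate 4.

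The neutrophil chemokines among the targets showed no common direction. Cxcl5, made by epithelial cells, had 5.01, 5.27 and 5.53, against 5.97, 5.93, 5.46 and 5.41 in the isotype O3 arrays and 3.65 to 4.31 in air. Cxcl1 had 5.74, 4.23 and 4.38, against 4.42, 4.30, 4.10 and 3.81. Cxcl2 had 6.46, 5.72 and 5.95, against 6.60, 6.64, 6.54 and 5.74. For Cxcl5 replicates 1 and 2 were below the isotype O3 arrays, and for Cxcl1 replicate 1 was above them. Csf3, the growth factor of neutrophils, was dim in all arrays, with 4.02, 3.73 and 3.37, against 3.30 to 3.51.

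Targets that act at the epithelium split by array. Lcn2, the iron-binding lipocalin 2, had 11.22, 9.94 and 10.98, against 10.65 to 11.14 in the isotype O3 arrays and 8.46 to 9.90 in air. Saa3, an acute phase serum amyloid, had 7.07, 9.61 and 7.5, against 7.10 to 7.69 and an air range of 4.15 to 9.17. Muc5b, the main gel-forming mucin of small airways, had 8.49, 5.93 and 6.98, against 7.07 to 8.29. Pigr, which carries IgA across the epithelium, had 9.57, 8.14 and 7.67, against 7.81 to 7.88 in isotype O3 replicates 1 to 3 and 9.32 in replicate 4. Replicate 2 was thus the lowest of the 7 arrays for Lcn2 and Muc5b and the highest for Saa3. Defb4, an antimicrobial defensin, had 3.52, 6.11 and 2.77, against 2.74 to 3.11 in 3 isotype O3 arrays and 10.79 in replicate 4, and 1 of the air arrays was at 10.30.

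The promoters of Il6, Lcn2 and Saa3 are shown because these well-known IL-17A targets differ in which of the 3 anti-IL-17A arrays was high or low. The sequences are those of RefSeq on GRCm38.p6, from 250 bases before to 50 bases after the gene start, on the strand of the gene. Capitals mark matches on either strand to a common form of the NF-κB motif, GGG and TTTCC with any 2 bases between them, and to TTGCNNAA, a core of the C/EBP motif. The region of Il6 is chr5:30012864-30013163 on the plus strand, that of Lcn2 is chr2:32387690-32387989 on the minus strand and that of Saa3 is chr7:46715627-46715926 on the minus strand.
Il6: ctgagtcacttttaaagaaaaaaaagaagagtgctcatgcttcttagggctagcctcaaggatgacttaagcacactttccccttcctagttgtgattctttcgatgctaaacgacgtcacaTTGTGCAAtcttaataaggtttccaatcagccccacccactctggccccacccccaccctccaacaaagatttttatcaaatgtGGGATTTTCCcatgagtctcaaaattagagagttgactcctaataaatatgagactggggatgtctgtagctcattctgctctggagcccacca
Lcn2: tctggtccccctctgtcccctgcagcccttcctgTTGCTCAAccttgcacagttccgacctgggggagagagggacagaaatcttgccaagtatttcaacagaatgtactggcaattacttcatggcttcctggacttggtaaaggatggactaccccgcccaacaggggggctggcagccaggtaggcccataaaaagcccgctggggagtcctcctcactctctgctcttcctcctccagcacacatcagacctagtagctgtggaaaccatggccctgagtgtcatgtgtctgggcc
Saa3: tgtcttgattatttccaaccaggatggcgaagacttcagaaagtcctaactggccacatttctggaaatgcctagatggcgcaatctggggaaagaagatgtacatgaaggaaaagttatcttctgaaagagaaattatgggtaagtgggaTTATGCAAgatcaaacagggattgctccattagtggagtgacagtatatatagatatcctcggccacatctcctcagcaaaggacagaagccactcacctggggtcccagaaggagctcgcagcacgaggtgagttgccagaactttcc
Il6 held 1 match to each motif, and Lcn2 and Saa3 held 1 match each to the C/EBP core and none to the NF-κB form. Of 32851 promoters of this length, 1.6% held the NF-κB form and 10.8% the C/EBP core. Of 22 promoters found for the 32 target genes, 5 held the first and 10 held the second. A match of letters says nothing of whether a factor was bound.

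**Figure D2:**
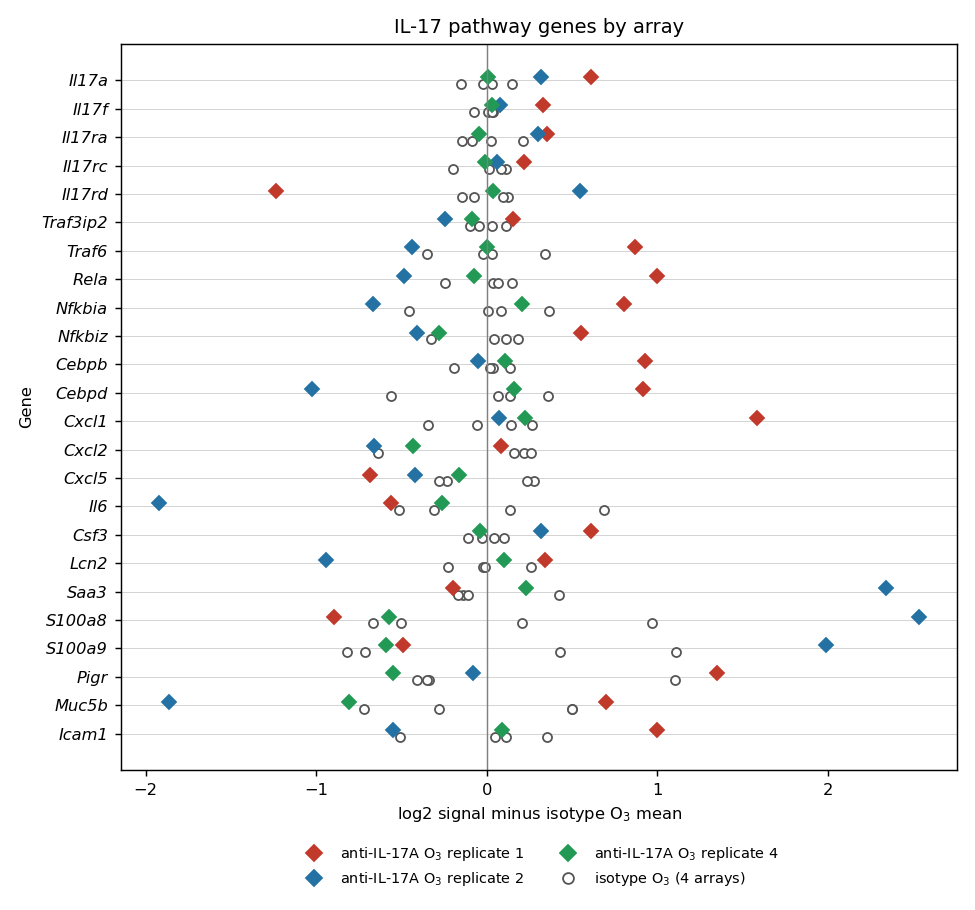
Signals of 24 genes of the IL-17 pathway (y axis) as the log2 signal minus the mean of the 4 isotype O3 arrays (x axis), with anti-IL-17A O3 replicates 1 (red), 2 (blue) and 4 (green) as diamonds and isotype O3 arrays as open circles. Red and blue lie apart for many genes, as for Saa3 (signals of 7.07 and 9.61) and on opposite sides of the circles for Rela (8.36 and 6.88), while green lies among or close to the circles.

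Genes of IL-17-making T cells were also mixed. Of 19 listed, 16 were measured, 0 had arrays that did not overlap and 0 had an unadjusted p under 0.05. Il23r, the receptor of the cytokine that sustains these cells, had 4.0, 4.55 and 4.33, against 4.14 to 4.57, and Zbtb16, a transcription factor of innate T cells that glucocorticoids also induce, had 9.93, 7.84 and 9.14, against 8.42 to 9.05. In RNA of whole lung, fewer cells of a type and less RNA per cell cannot be told apart.

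The 5 genes whose arrays did not overlap and that were lower by 1 or more in the anti-IL-17A arrays were Eid3, Agr2, Muc15, Snora23 and Rnu73a, the last 2 being small nucleolar RNAs. Muc15, Snora23 and Rnu73a are named for being in this count, after their values were seen. None had an adjusted p under 0.83. Eid3, an inhibitor of the coactivator p300, had 5.79, 6.46 and 7.0 in replicates 1, 2 and 4, against 8.11, 7.61, 7.71 and 7.15 in isotype O3 replicates 1 to 4, a difference of -1.23 ± 0.36 (SE). The air arrays had 6.97 to 8.40. Agr2, a disulfide isomerase that goblet cells need to make mucin, had 5.43, 5.69 and 5.35, against 6.69, 7.71, 5.71 and 6.48, a difference of -1.15 ± 0.37. Its air arrays had 5.62 to 6.34. For Agr2 the 3 anti-IL-17A arrays were close together and the isotype O3 arrays were spread, with isotype O3 replicate 3 just above anti-IL-17A replicate 2. Muc15, a membrane mucin, had 3.11, 3.08 and 3.05, against 3.45, 3.26, 3.22 and 6.43, a difference of -1.01 ± 0.71 that was -0.23 without isotype O3 replicate 4.

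Other genes with arrays below the isotype O3 arrays differed by less. Ppp1r12b, a regulatory subunit of myosin phosphatase, had 6.81, 7.17 and 7.40, against 7.68, 7.60, 7.76 and 8.08 (difference -0.65 ± 0.16). With the mean of its 7 probe sets in place of the brightest, the difference was -0.15, and it was -0.39 without the arrays high in Ucp1. B3galt2, a galactosyltransferase, had 5.84, 6.27 and 6.03, against 6.60, 6.98, 6.55 and 7.16 (difference -0.78 ± 0.22). Tigit, an inhibitory receptor of T and NK cells, had 5.87, 5.69 and 6.44, against 6.86, 6.52, 6.61 and 6.69 (difference -0.67 ± 0.21). Ppp1r12b and B3galt2 were low in all 3 arrays, and for Tigit replicate 4 was just below the lowest isotype O3 array. In Pnpt1, Snapc3, Spopl, Tc2n, Nop58, E2f5 and Tmem167, also below in all 3 arrays (differences -0.80 to -0.65), replicate 1 was the lowest. Without it the differences were -0.42 for Pnpt1, -0.31 for Snapc3, -0.25 for Spopl, -0.32 for Tc2n, -0.36 for Nop58, -0.41 for E2f5 and -0.13 for Tmem167. Tmem167 for example had 7.06, 8.59 and 8.67, against 8.71 to 8.78.

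Genes with arrays above the isotype O3 arrays differed by at most 0.71. Pglyrp1, a bactericidal protein of neutrophil granules, had 8.10, 7.72 and 7.39, against 7.33, 6.84, 6.96 and 7.08 (difference 0.69 ± 0.22). Angpt2, which opposes angiopoietin 1 at the endothelial receptor Tie2, had 6.69, 6.70 and 6.43, against 5.90, 6.30, 6.41 and 5.84 (difference 0.50 ± 0.17). Kdr, the main endothelial VEGF receptor, had 9.23, 9.26 and 9.04, against 8.52, 8.84, 9.0 and 8.50 (difference 0.47 ± 0.13). Emp3, a small membrane protein, had 9.30, 9.72 and 9.29, against 8.90, 8.83, 8.84 and 9.07 (difference 0.53 ± 0.19). In these 4 genes all 3 anti-IL-17A arrays were above, with replicate 4 the lowest of the 3. In Fbln1, Slc29a1, Hmgn1 and Faim2 (differences 0.50 to 0.71) replicate 1 was the highest, and without it the differences were 0.23, 0.18, 0.18 and 0.36. Hmgn1 had 6.95, 5.93 and 6.06, against 5.70 to 5.86. The exact permutation test gives each gene with arrays that do not overlap a p of 0.0571, the smallest that 3 against 4 arrays allow.

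**Figure D3:**
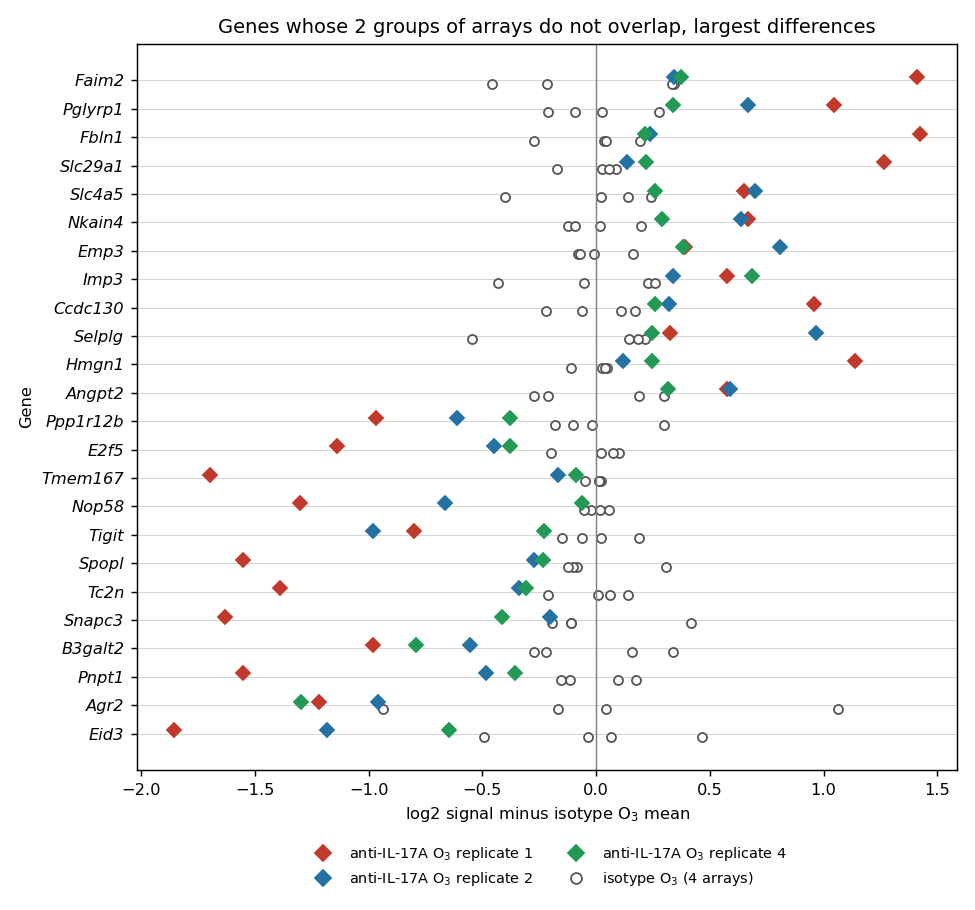
The 12 genes with the largest positive and the 12 with the largest negative difference (y axis) among genes whose arrays do not overlap and whose higher group mean is at least 6, as the log2 signal minus the isotype O3 mean (x axis), with the 3 anti-IL-17A O3 arrays as coloured diamonds and the 4 isotype O3 arrays as open circles. Red diamonds, replicate 1, lie furthest out for Fbln1, Slc29a1, Hmgn1, Tmem167 and Spopl, while the 3 arrays lie near each other for Agr2 and B3galt2.

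In anti-IL-17A replicate 1 adipocyte, circadian clock and glucocorticoid-induced genes had high list medians and mitotic genes a low one. Its furthest gene above the isotype O3 arrays was Trp53i11, a p53-induced gene, with 10.09, against 6.92 to 7.46 there and 6.96 and 7.04 in replicates 2 and 4. Socs3, the feedback inhibitor of cytokine receptors, had 8.87, against 5.94 to 6.51 in the isotype O3 arrays and 5.59 and 6.46 in replicates 2 and 4. Slc2a1, the basal glucose transporter, had 9.92, against 7.14 to 7.78, and Gadd45b, a stress-induced growth arrest gene, had 9.21, against 5.99 to 7.26. Samd4b, Trp53inp2, Dkk3 and Pxn completed the 8 furthest above. In replicates 2 and 4 none of these 8 genes was outside the isotype O3 arrays by over 1.

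The furthest below were Stxbp4, Prim1, Etohi1, Atpbd4, Ttc30b, Taf1d, Hmgn5 and Mcts1. Prim1, a subunit of DNA primase, had 4.65 in replicate 1, against 7.46 to 8.76 in the isotype O3 arrays and 8.09 and 8.27 in replicates 2 and 4. Taf1d, part of the RNA polymerase I initiation complex, had 7.53, against 9.86 to 10.76. Among the lists, circadian clock genes had a median of 0.79 above the isotype O3 mean (13 of 19 above every isotype O3 array, with Per1 at 8.66, against 6.86 to 7.54) and glucocorticoid-induced genes one of 0.71 (12 of 15), a position that 42.5% of all genes had in this array. The median of mitotic genes was -0.65 (23 of 28 below every isotype O3 array, as were 25.4% of all genes). Top2a, the topoisomerase of dividing cells, had 5.58, against 6.42 to 7.83.

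Adipocyte genes were also high in replicate 1, with a median of 1.19 and 14 of 16 above every isotype O3 array, as were 42.5% of all genes. The list's median difference between the groups was 0.20, and -0.13 without the 3 arrays high in Ucp1. Cidea, a lipid droplet protein of brown fat, had 5.93, against 3.15 to 3.27 in isotype O3 replicates 1 to 3 and 4.83 in replicate 4. The difference varied with the signal level in this array. Of 5 groups of genes ordered by their isotype O3 mean, the brightest had a median difference of -0.17 and the next to dimmest one of 0.18, and in replicates 2 and 4 the medians of the same pair of groups lay between -0.04 and 0.04. The part of these in the difference of single genes was not tested.

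Anti-IL-17A replicate 2 had low signals of genes of acute O3 injury and high signals of neutrophil, ciliated cell and mitotic genes. Of 40 acute ozone injury genes, 32 were below every isotype O3 array in replicate 2, as were 20.1% of all genes, 29 were nearer the air mean than the isotype O3 mean, and 19 were within the range of the air arrays. In replicates 1 and 4, 5 genes each were nearer the air mean. The shares of all genes nearer the air mean or within the air range were not counted, so these counts have no background. Tnc, the matrix protein tenascin C of wounded tissue, had 5.16 in replicate 2, against 7.27, 7.96, 8.37 and 7.35 in the isotype O3 arrays, 4.36 to 5.42 in air, and 6.98 and 8.26 in replicates 1 and 4. Ereg, an EGF receptor ligand, had 4.44, against 6.37 to 7.07 with O3 and 3.74 to 5.29 in air. Mt2, a metallothionein, had 8.69, against 10.53 to 11.29 with O3 and 7.76 to 9.20 in air. These 3 genes were at the air level in replicate 2, and Il6, at 5.25, was between the air and the isotype O3 levels. The array labelled anti-IL-17A replicate 2 was thus nearer the air arrays than its O3 label in this list. Without it the median difference of the list was 0.28, against -0.12 with it, and neither count of calls differed from 0.

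Genes of the NRF2 response, which raises glutathione synthesis under oxidative stress, were also low in replicate 2. Slc7a11, the cystine carrier, had 5.31, against 6.17 to 8.12 in the isotype O3 arrays and 4.92 to 5.71 in air, while replicates 1 and 4 had 9.20 and 7.27. Nqo1, a quinone reductase, had 6.11, against 7.14 to 8.23, and here replicates 1 and 4 had 7.16 and 7.70. In the list of 30 glutathione and NRF2 genes, 18 were below every isotype O3 array in replicate 2 (20.1% of all genes), 8 in replicate 1 (25.4% of all genes, so near the background) and 0 in replicate 4 (16% of all genes). Glucocorticoid-induced genes had a median of -0.94 in replicate 2 (13 of 15 below every isotype O3 array, as were 20.1% of all genes), with Per1 at 6.19 and Dusp1, a MAP kinase phosphatase, at 9.22, against 10.24 to 10.69.

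Neutrophil genes had a median of 1.35 in replicate 2, and 19 of 25 measured were above every isotype O3 array, as were 25% of all genes. Mmp8, neutrophil collagenase, had 10.26 in replicate 2, against 7.70 to 8.05 in the isotype O3 arrays and 6.47 and 7.28 in replicates 1 and 4. S100a8, an alarmin of neutrophils and an IL-17A target, had 10.33, against 7.13 to 8.76, and 6.90 and 7.22 in replicates 1 and 4. Retnlg, a resistin-like protein of neutrophils, had 10.55, against 7.65 to 9.26, and 6.98 and 8.43. The air arrays were spread as widely, from 6.99 to 10.42 for Mmp8, from 7.36 to 10.40 for S100a8 and from 7.88 to 10.77 for Retnlg, with the list medians of air replicates 1 and 4 at 1.26 and 1.29. The WT O3 array had a list median of 0.85. Ltf, lactoferrin, ran the other way, with 5.75 in replicate 2, against 7.74 to 8.60 with O3 and 5.43 to 7.13 in air. The levels of neutrophil transcripts thus differed among arrays of 1 group both with and without O3.

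Among the 8 genes furthest above in replicate 2 were also genes of monocytes and macrophages. Emr4, an adhesion receptor of myeloid cells, had 8.72, against 4.18 to 6.13 in the isotype O3 arrays and 5.91 to 7.57 in air. Fcgr1, the high-affinity IgG receptor, had 6.56, against 3.88 to 4.50. Outside these 8, Ccr2, the receptor of inflammatory monocytes, had 9.85, against 6.57 to 8.36 with O3 and 8.37 to 8.84 in air, and 5.38 and 7.17 in replicates 1 and 4. Macrophage genes as a list had a median of 0.42 in this array (14 of 26 above every isotype O3 array, against 25% of all genes). The isotype O3 arrays were at -0.28 to 0.54 for this list, so isotype O3 replicate 4 had a higher median. T and NK cell genes had a median of 0.66 in replicate 2 (16 of 25 above every isotype O3 array), and the isotype O3 arrays were at -0.28 to 0.45. Gzma, a granzyme of cytotoxic cells, was at 9.36, against 5.62 to 8.12.

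Ciliated cell genes had a median of 1.22 in replicate 2, -0.16 in replicate 1 and -0.34 in replicate 4, and the air arrays were at 1.27 to 1.38. The WT O3 array was at 0.70. In replicate 2, 20 of 23 were above every isotype O3 array, as were 25% of all genes. In the same array 22 were nearer the air mean, a position not counted over all genes. Hydin, a protein of the ciliary central pair, had 5.45, 6.53 and 4.50 in replicates 1, 2 and 4, against 4.64 to 5.18 in the isotype O3 arrays and 6.81 to 7.24 in air. Sntn, sentan of the ciliary tip, had 4.39, 7.39 and 4.92, against 4.88 to 6.21 and 7.51 to 7.66 in air. In replicate 4, 10 of the 23 were below every isotype O3 array, as were 16% of all genes. Mitotic genes, with a median of 0.75 in replicate 2 (18 of 28 above every isotype O3 array, against 25% of all genes), differed from the air arrays, which were at -0.68 to 0.07. Other O3 arrays were nearer to replicate 2 in this list. The isotype O3 arrays were at -0.24 to 0.50, with the 0.50 in replicate 4, and the WT array was at 0.36. Top2a had 8.56 in replicate 2, against 6.42 to 7.83 with O3 and 6.41 to 7.63 in air.

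**Figure D4:**
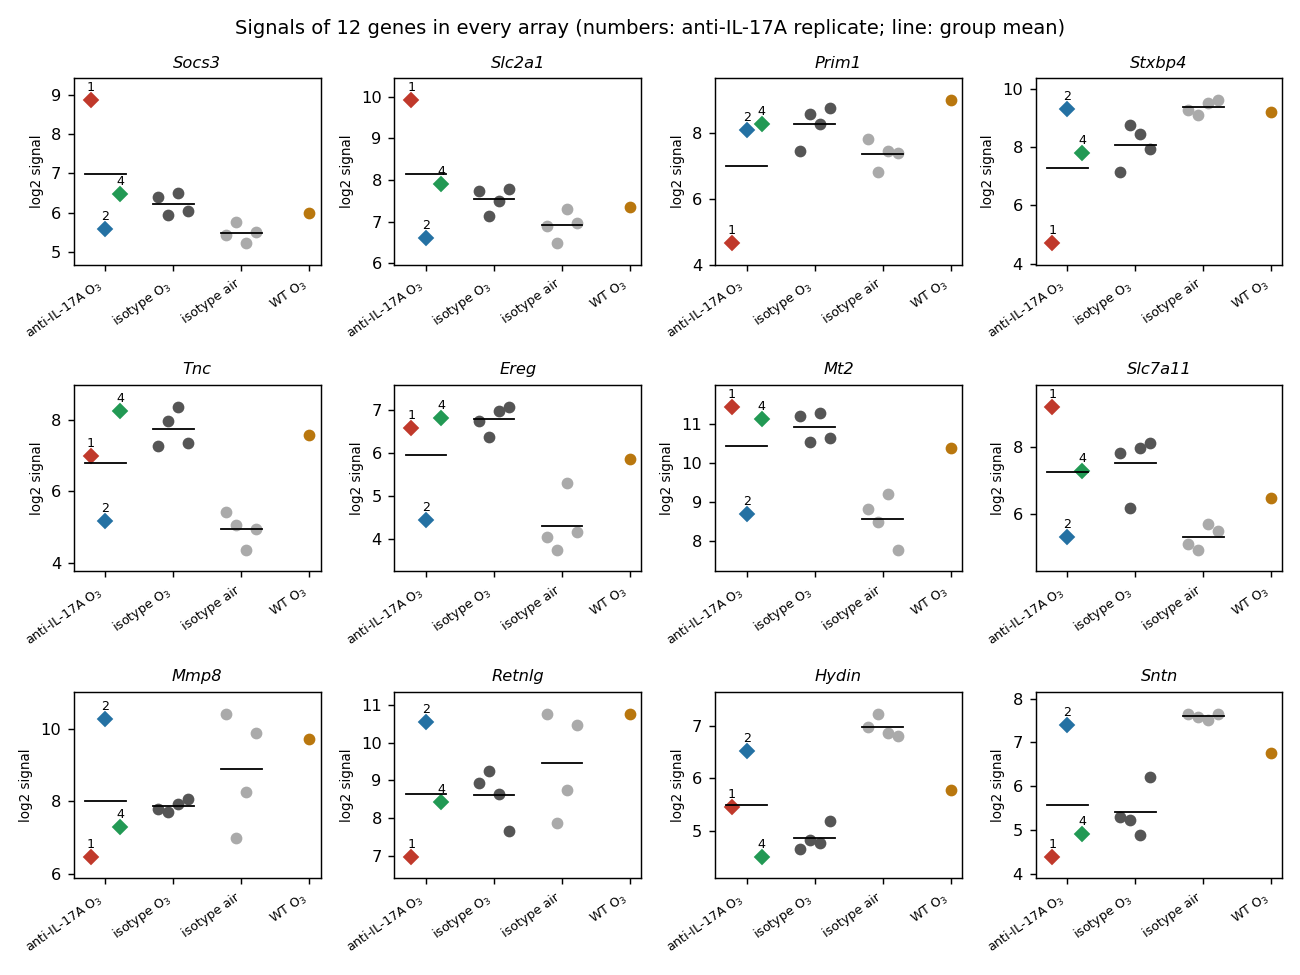
The log2 signal (y axis) of 12 genes in every array of the 4 groups (x axis), with anti-IL-17A O3 arrays as numbered diamonds, other arrays as circles and the mean of each group of more than 1 array as a line. Replicate 1 is apart for Socs3 (8.87), Slc2a1 (9.92), Prim1 (4.65) and Stxbp4 (4.71), and replicate 2 is at the air level for Tnc (5.16), Ereg (4.44), Mt2 (8.69) and Slc7a11 (5.31) and high for Mmp8 (10.26), Retnlg (10.55) and Sntn (7.39).

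Anti-IL-17A replicate 4 was close to the isotype O3 arrays. Its acute ozone injury genes had a median of 0.11, its IL-17 target genes one of -0.10, and the largest list medians were red cell genes at 0.38 and ciliated cell genes at -0.34, apart from skeletal muscle. The 2 genes below every isotype O3 array by over 1 were Hdc, the enzyme that makes histamine, with 5.26, against 6.78 to 7.79, and Adipoq, adiponectin, with 5.12, against 6.14 to 7.38. In replicates 1 and 2, Hdc had 8.22 and 7.09 and Adipoq 7.54 and 5.67. Lep, leptin, had 4.58 in replicate 4, against 5.10 to 6.51, and 5.99 and 4.43 in replicates 1 and 2. Clec4e, a myeloid receptor of the neutrophil list, had 6.07, against 6.90 to 7.57. The furthest above were Tubb1, the tubulin of platelets, with 6.35, against 4.85 to 5.43, and Gal, galanin, with 5.49, against 4.42 to 4.82. Of 25 neutrophil genes 9 were below every isotype O3 array in replicate 4 and 0 above, against 16% and 14.8% of all genes, with a list median of -0.24.

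Over the 34 lists, of 11 to 40 measured genes, 0 members passed an adjusted p of 0.05 by limma. The number of members whose arrays did not overlap ran from 0 to 1 in each direction. In a single list of this size such a count cannot be told from the background of 2.65% above and 1.42% below. Among these members were Gata3, the transcription factor of type 2 lymphocytes (6.01, 5.40 and 5.58, against 5.12 to 5.30), C1qc, a complement chain made by macrophages (5.77, 6.37 and 5.80, against 5.51 to 5.55), Bst2, an interferon-induced antiviral protein (6.95, 6.96 and 7.09, against 6.16 to 6.93), and Gabrp, an epithelial GABA receptor subunit (9.48, 10.09 and 10.04, against 10.14 to 10.46). Their differences were 0.46, 0.45, 0.33 and -0.38. Without anti-IL-17A replicate 1 those of Gata3 and Gabrp were 0.29 and -0.19, that of C1qc was 0.25 without replicate 2, and that of Bst2 was 0.16 without isotype O3 replicate 4. The largest median difference of a list was -0.91, in skeletal muscle genes. It rested on 1 isotype array. Acta1, skeletal muscle actin, had 4.96, 4.91 and 4.75 in the anti-IL-17A arrays, against 4.93, 4.76 and 4.52 in isotype O3 replicates 1 to 3 and 9.35 in replicate 4, and without that replicate the list median was 0.10. Interferon-stimulated genes, with a median difference of 0.33, were the highest of the lists, at 0.13, 0.57 and -0.02 in replicates 1, 2 and 4, and the median was 0.08 without replicate 2. Gbp3, an interferon-induced GTPase, had 6.98, 7.35 and 6.07, against 5.85 to 6.41.

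**Figure D5:**
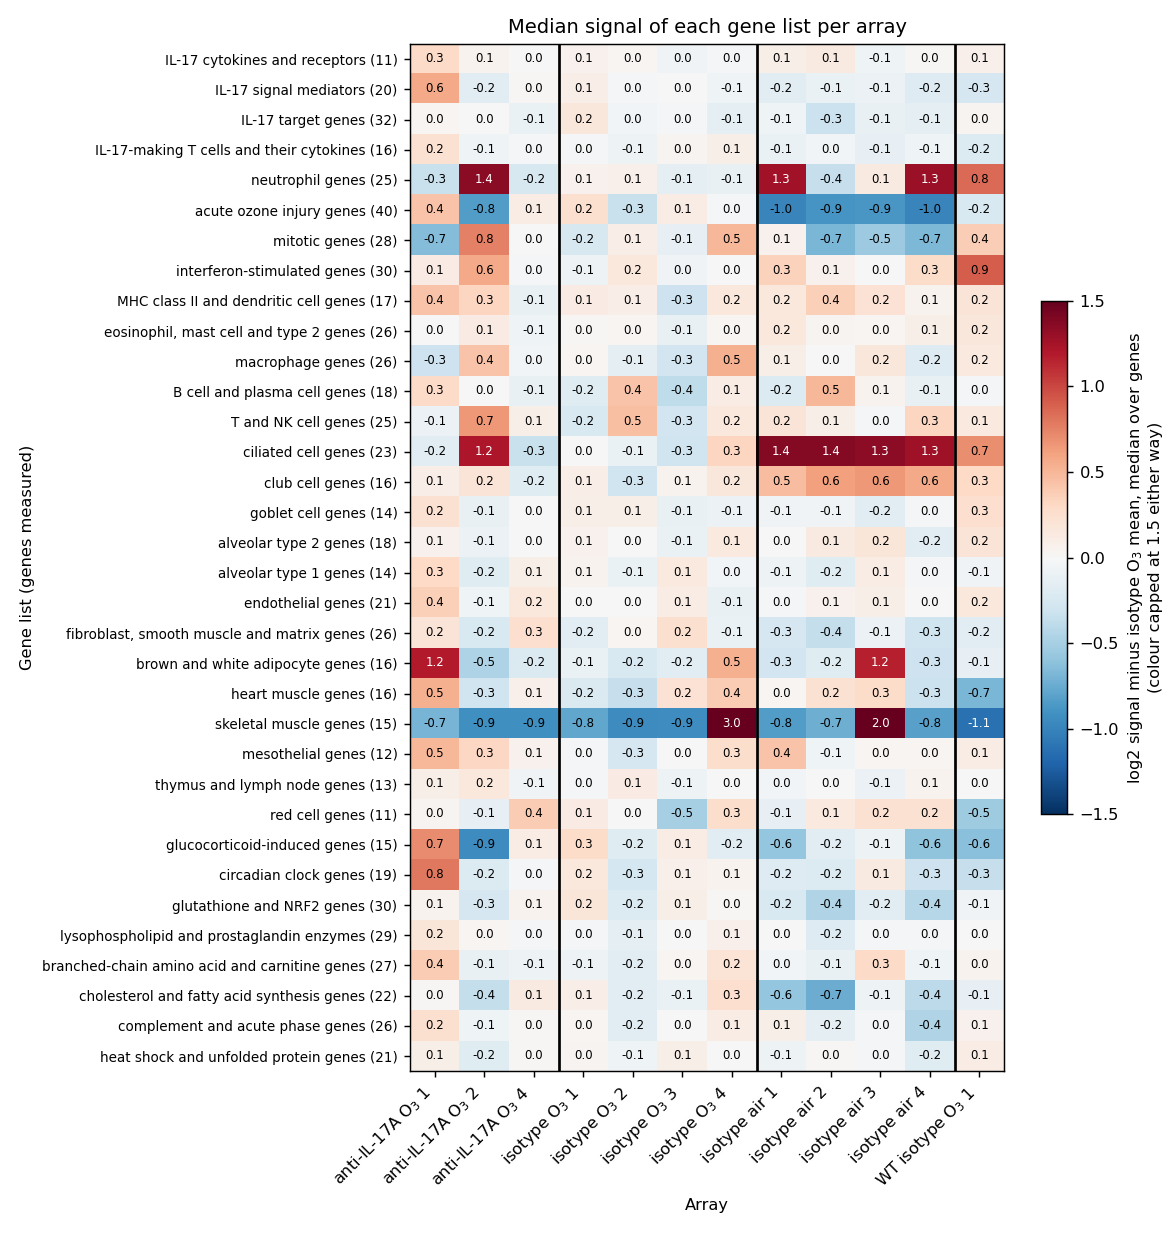
Median over the measured genes of each of 34 lists (rows) of the log2 signal minus the mean of the 4 isotype O3 arrays, for the 3 anti-IL-17A O3, 4 isotype O3, 4 isotype air and 1 WT arrays (columns), as numbers and colour capped at 1.5 either way. The 3 anti-IL-17A columns differ: replicate 1 is high for adipocyte genes (1.19), replicate 2 is high for neutrophil genes (1.35) and low for acute ozone injury genes (-0.84), and replicate 4 is near 0 in most rows.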

How the data were processed

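Total RNA of lungs was hybridised to 12 Affymetrix mouse arrays. Per the labels and the methods, the authors made the deposited log2 signals with oligo and RMA. RMA corrects background, normalizes by quantiles and summarises probes, and low signals are compressed. The median signals of the deposited arrays still ran from 4.75 to 4.90. The authors also used limma; versions are not given in the sources used here. The 2 deposited tables held the same values, with 35556 probe sets, of which 10302 had no symbol and were left out. A further 425 probe sets, whose deposited symbol conflicted with the reference annotation, were also left out. Each of 21532 genes was represented by its brightest probe set, by the mean of the 7 arrays. A probe set that matches several genes was taken only where the gene had no other. For 1152 genes no probe set was specific to the gene, and these were tested but not named.

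Groups came from the labels. limma 3.58.1 in R 4.3.3 was fitted to all 12 arrays with 1 mean per condition (8 residual degrees of freedom), with Benjamini-Hochberg adjustment over 21532 genes and a threshold of 0.05. The scripts were checked on simulated data. Exact permutation tests over the 35 splits of 3 against 4 arrays cannot give a two-sided p below 0.0571, so they cannot reach 0.05. The precision is limited by the number of arrays, with a median standard error of 0.146. Alternatives were other scalings, probe set rules, filters, variance models, array weights, a replicate block and the removal of arrays.

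The genes and the 34 lists (666 of 683 listed genes measured) were chosen with earlier results of these data known. Genes of the 4 IL-17 lists could be named. So could the 12 genes each way with the largest difference whose arrays do not overlap (higher group mean at least 6, no predicted genes or small RNAs). Up to 4 genes of each other list could be named, as could the 8 genes each way furthest from the isotype O3 arrays in each anti-IL-17A array. The text gives only some of these genes, and no rule set before the values were seen chose among them. Other list members named for single arrays, such as Hydin, Sntn, Slc7a11 and Top2a, were chosen after their values were seen. Promoters came from RefSeq tables.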

Additional observations from a re-analysis of the deposited data

Results flagged for a closer look

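Of 82 genes named with their values, 14 had 1 of the 4 isotype O3 arrays far from the other 3 by Dixon's criterion, which chance meets in about 1 in 20 groups. Many of these genes were chosen after their values were seen, and all share the same arrays. The count of 14 can therefore not be set against that rate. In isotype O3 replicate 4, Acta1 (9.35, against 4.52 to 4.93 in the others), Cidea (4.83, against 3.15 to 3.27), Adipoq (7.38, against 6.14 to 6.29) and Lep (6.51, against 5.10 to 5.30), genes of muscle and fat, were high. The epithelial genes Defb4 (10.79, against 2.74 to 3.11), Muc15 (6.43, against 3.22 to 3.45) and Pigr (9.32, against 7.81 to 7.88) were high in the same array, and Cxcl2 (5.74, against 6.54 to 6.64) and Hmgn1 (5.70, against 5.84 to 5.86) were low. In isotype O3 replicate 2, the NRF2 targets Nqo1 (7.14, against 8.18 to 8.23) and Slc7a11 (6.17, against 7.81 to 8.12) were low, and Snapc3 (9.07, against 8.46 to 8.54) and Spopl (7.08, against 6.65 to 6.69) were high. Saa3 was high in isotype O3 replicate 1 (7.69, against 7.10 to 7.16). The groups of 3 anti-IL-17A arrays are too small for this criterion.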

How the results depend on the processing

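No gene was called under any alternative, and the smallest adjusted p ran from 0.26 with array weights to 1.0. The 993 genes at an unadjusted p under 0.05 by limma became 537 without the dimmest 40% of probe sets, 443 when only the 7 arrays were fitted, 2223 with array weights, 637 without the arrays high in Ucp1, and 614 to 3234 when 1 array was left out (614 without anti-IL-17A replicate 1, 3234 without replicate 2 and 2441 without replicate 4). The 5 genes whose arrays did not overlap and differed by 1 or more became 1 with array weights, 18 without the arrays high in Ucp1, and 10 to 72 when 1 array was left out. Array weights gave anti-IL-17A replicates 1, 2 and 4 weights of 0.128, 0.378 and 5.066. An alternative added after the data were seen, the 7 arrays without anti-IL-17A replicate 1, gave 364 and 11 genes. Many of the named genes were chosen because their arrays do not overlap, so leaving out an array cannot reverse them. Some alternatives change only the variance and leave the difference as it was. Of 1133 values of 57 named genes, 1128 kept their direction and side of the threshold, a count largely fixed in advance for these reasons. The others were Il33 (0.07 with array weights), Tsc22d3 (-0.02 without the arrays high in Ucp1) and Lipe (-0.11 without them, -0.16 without anti-IL-17A replicate 1 and -0.16 in the added alternative, against 0.52 in all arrays, and -0.16 to 1.0 over the arrays left out). The cause was not tested. The labels do not say whether equal replicate numbers pair the arrays. Deviations from the group means had correlations of 0.43, 0.446 and -0.131 between anti-IL-17A and isotype O3 arrays of equal numbers 1, 2 and 4. Between arrays of unequal numbers these correlations ran from -0.45 to 0.222. A pairing was thus not settled. With the replicate block 0 genes were called, 952 had an unadjusted p under 0.05 by limma and 5 did not overlap by 1 or more.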

Other observations

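In gene families chosen after their values were seen, small nucleolar RNA genes (Snord and Snora, 63 genes) had a median difference from the isotype O3 mean of -0.37, -0.34 and 0.05 in anti-IL-17A replicates 1, 2 and 4, against 0.12, 0.55, -0.13 and -0.55 in isotype O3 replicates 1 to 4, so the isotype O3 arrays were spread as widely. Histone genes (61) had 12 members with all anti-IL-17A arrays above all isotype O3 arrays and 0 below, against 2.65% and 1.42% of all genes, with a median difference of 0.18. Among the 32 read by a probe set of 1 gene these numbers were 2 and 0, with a median of 0.01. Ribosomal protein genes (101) had 5 above and 0 below, against the same shares, with a median of 0.07.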
